A study of Mus musculus with 5 samples.

Results

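The contractile genes of smooth muscle that mark peritubular myoid cells of the testis were followed across conditional Dmrt1 knockouts. The set held 7 genes listed by symbol: Acta2, Actg2, Myh11, Tagln, Cnn1, Des and Myl9. A RefSeq transcript of 6 of them had a row in the deposited table of 25631 transcripts and 17277 named genes, with 1 row each. The expression of Myl9 was not analysed here. The rule that lists them uses no measured value, but the members were chosen with earlier results of these data known. Total RNA of whole juvenile mouse testes at postnatal day 9 had been measured on 5 single-colour NimbleGen arrays, and each value is a linear intensity made with RMA, a method that equalises the arrays. The groups were 1 DHH-cre Dmrt1 knockout array (Cre-positive), 3 NGN-cre Dmrt1 knockout arrays (Cre-positive) and 1 control array, which is Cre-negative and carries the NGN-cre label. The sources used here name the drivers no further and do not say whether separate animals were used. The p-values below therefore reflect the spread of these arrays, which may be technical. All samples were male, and whole testes were used, so the values average over every cell type present.

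Peritubular myoid cells are flat, contractile cells that surround the seminiferous tubules. They move tubule fluid and sperm by contraction, and with Sertoli cells they lay down the basement membrane on which spermatogonia rest. Their contractile apparatus is that of smooth muscle: actin thin filaments, a smooth muscle myosin whose light chain is phosphorylated when calcium rises, actin-binding proteins that tune the filaments, and desmin filaments that anchor them. Genes of this apparatus are switched on by serum response factor with its coactivator myocardin, through a DNA element called the CArG box. Vascular smooth muscle and pericytes use the same genes, so in whole testis they are not markers of myoid cells alone. In such tissue, fewer cells of a type and less RNA per cell cannot be told apart.

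Dmrt1, the gene deleted in the study, had an intensity of 6416 on the DHH-cre array, 4884, 5644 and 5509 on the NGN-cre arrays, and 11847 on the control array. It was thus lower in every knockout than in the control, at 54.2% of the control level with DHH-cre and between 41.2% and 47.6% with NGN-cre. The position of its probes relative to the deletion was not given. Median intensities of the 5 arrays lay between 721 and 730.1. The DHH-cre array stood apart from the other 4: the SD of log2 differences over all transcripts was 0.58 to 0.67 against it and 0.35 to 0.50 among the others. The array numbers in the titles place it apart as well, so array and group cannot be told apart. Olfactory receptor transcripts, used as a gauge of dim signal, had a median log2 intensity of 5.23 and a 95th percentile of 8.26. Of the 6 measured genes only Cnn1, with log2 values of 7.38 to 8.43, had a mean below that percentile, so its differences are those of a dim transcript.

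The RefSeq promoter table (GRCm38.p6) matched 4 of the 7 genes: Acta2, Cnn1, Des and Myl9. The 250 bases before the transcript start in that table are shown for Acta2 and Cnn1, because these genes differed most, and in opposite directions, between the knockouts. They lie at chr19:34255374-34255623 on the minus strand for Acta2 and at chr9:22099003-22099252 on the plus strand for Cnn1, and are written along the gene, with matches to the CArG box in capitals.
Acta2: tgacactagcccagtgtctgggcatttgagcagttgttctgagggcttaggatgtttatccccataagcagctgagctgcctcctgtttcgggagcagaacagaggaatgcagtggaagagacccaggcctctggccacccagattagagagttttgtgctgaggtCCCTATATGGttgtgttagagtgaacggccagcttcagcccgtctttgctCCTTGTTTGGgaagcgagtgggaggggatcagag
Cnn1: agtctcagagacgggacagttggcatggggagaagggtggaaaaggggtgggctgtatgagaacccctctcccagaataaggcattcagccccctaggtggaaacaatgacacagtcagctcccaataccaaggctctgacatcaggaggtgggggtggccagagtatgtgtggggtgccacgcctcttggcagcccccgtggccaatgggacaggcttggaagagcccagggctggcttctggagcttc
The CArG box was searched on both strands, counting a palindromic match once, either exactly or with 1 G or C among its inner A and T bases. Acta2 held 2 inexact matches, CCCTATATGG, which began 84 bases before the start, and CCTTGTTTGG, which began 34 bases before it. Myl9 held an exact match, CCTAATAAGG, and an inexact match, CCTTGTAAGG. The windows of Cnn1 and Des held none of these letters. Among 32851 mouse promoter windows of the same length, 1.47% held an exact match, 7.24% an inexact match and 0.670% at least 2 matches of either kind. Annotated transcription of Acta2 reaches 212 bases upstream of the start used, and that of Cnn1 32 bases, so other starts lie within these windows. A match here is a description of the letters and not a bound site.

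The thin filament actins came first in the order of function. Acta2 encodes smooth muscle alpha-actin, the most used marker of myoid cells. Its intensity was 1878 on the DHH-cre array, 2442, 3259.9 and 4114.5 on the NGN-cre arrays, and 2747 on the control array. The DHH-cre value was below all other arrays, while the control value lay inside the NGN-cre range. Over the 5 arrays Acta2 spanned 1.13 log2 units, the widest of the 6 genes, and 0.75 of this lay among the NGN-cre arrays alone. Actg2 encodes smooth muscle gamma-actin, the form that prevails in gut and other visceral muscle. It had 17086 on the DHH-cre array, 17391.5, 18541 and 21033 on the NGN-cre arrays, and 18257 on the control array. These values spanned 0.30 log2 units in all, and the DHH-cre value was the lowest by a narrow margin. The actin genes are close in sequence, and the probes were not given, so signal shared between Acta2, Actg2 and other actins cannot be told apart.

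The motor and the cytoskeletal members varied less than the actin-binding members. Myh11 encodes the smooth muscle myosin heavy chain, the motor that pulls on these filaments. It had 19835 on the DHH-cre array, 24902.5, 24929.7 and 22491.5 on the NGN-cre arrays, and 23124 on the control array, so that here too the DHH-cre value was below all others. Des encodes desmin, the intermediate filament protein of muscle cells. It had 979 on the DHH-cre array, 890.2, 1199 and 1023 on the NGN-cre arrays, and 850.2 on the control array. The control was the lowest of the 5 and the DHH-cre value lay inside the NGN-cre range.

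Tagln encodes transgelin, also called SM22 alpha, a protein that crosslinks actin filaments. Its intensity was 540.1 on the DHH-cre array, 357.5, 585 and 512 on the NGN-cre arrays, and 324 on the control array. All 4 knockout values were above the control, though NGN-cre replicate 1 was near it. Cnn1 encodes calponin 1, which binds actin and slows the myosin motor. It had 346 on the DHH-cre array, 201, 167 and 257 on the NGN-cre arrays, and 186 on the control array. The DHH-cre value of Cnn1 was the highest of the 5, the reverse of its place for Acta2, Actg2 and Myh11.

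**Figure D1:**
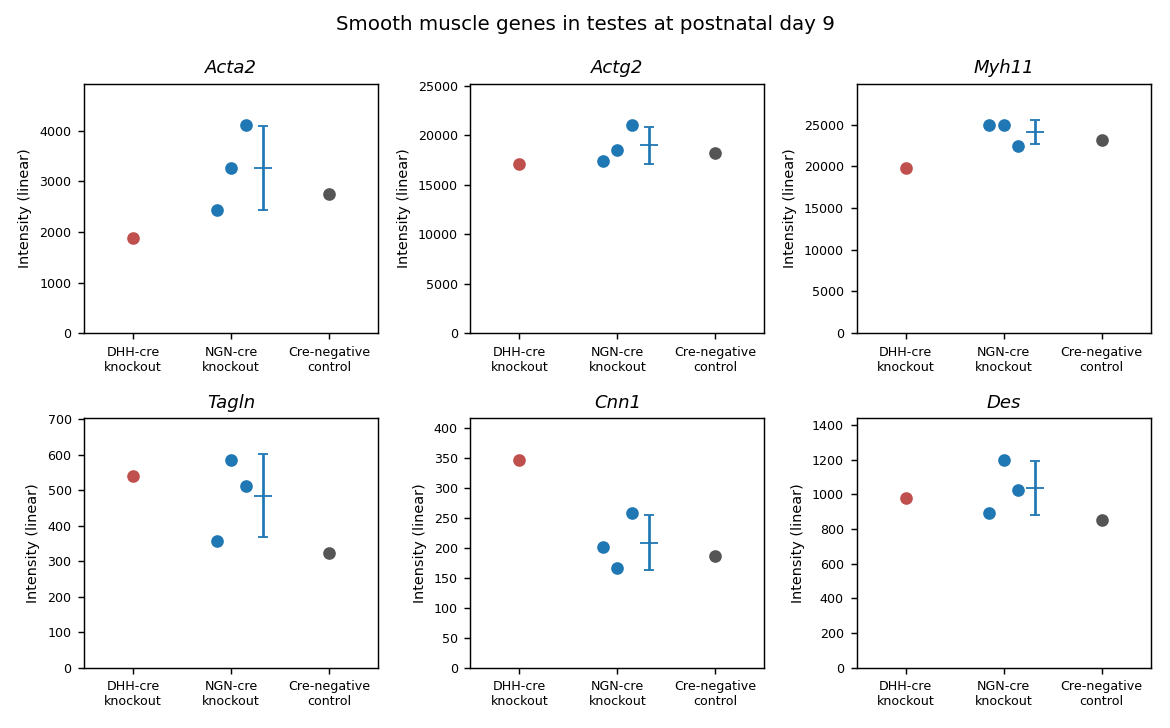
Linear intensity (y axis, from 0) of the 6 measured smooth muscle genes by group (x axis). Each point is an array, and the bar beside the 3 NGN-cre knockout points is their mean ± SD. The DHH-cre knockout point is the lowest for Acta2 (1878), Actg2 (17086) and Myh11 (19835) and the highest for Cnn1 (346).

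The members differed in how widely they varied among replicates. The SD of log2 values among the 3 NGN-cre arrays was 0.38 for Acta2, 0.37 for Tagln, 0.31 for Cnn1, 0.21 for Des, 0.14 for Actg2 and 0.09 for Myh11. Of all transcripts, 85.7% had a smaller SD than Acta2 and 84.7% a smaller SD than Tagln, against 14.1% for Myh11. NGN-cre replicate 3 had the highest value of Acta2 and Actg2 and the lowest of the NGN-cre values of Myh11. Replicate 2 had the highest Tagln and Des and the lowest Cnn1. Median absolute log2 differences over the 6 genes were 0.21 to 0.34 between NGN-cre arrays and 0.11 to 0.37 between these and the control. These ranges overlapped.

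The first comparison asked whether these genes differed between testes with the NGN-cre deletion and the control. All 6 measured genes had a higher mean in the NGN-cre knockout, by 0.05 to 0.55 on the log2 scale, with a median of 0.18 against -0.02 over all transcripts, of which 47.4% were higher. Of the 6, 0 passed at an adjusted p under 0.05 (limma with Benjamini-Hochberg adjustment over all rows), and the same test called 0.00% of 25631 transcripts. At an unadjusted p under 0.05 there were 0 of the 6 genes, against 7.86% of all transcripts. The 3 NGN-cre arrays were all above the control for Tagln and Des, 2 of 6 genes, whereas 25.7% of all transcripts had this order. Markers of other cells differed in this comparison too. Of 6 macrophage genes 5 were higher with the NGN-cre deletion. Their median difference was 0.50, with sums of 7969 to 10359 on the NGN-cre arrays and 6078 on the control array. Endothelial and stromal fibroblast genes were each higher for 7 of 9, with medians of 0.19 and 0.16, and their sums on all 3 NGN-cre arrays were above that on the control array. Of 9 Sertoli cell genes 9 were lower, with a median of -0.28 and sums of 100915 to 107924 on the NGN-cre arrays and 128763 on the control array. None of these markers passed or was at 0, the dimmest being the macrophage gene Cd14 at a mean log2 of 7.19, and their part in the values of the 6 genes was not tested.

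Tagln had the largest difference, averaging 485 ± 116 in NGN-cre knockouts (SD, n = 3) and 324 on the control array. This was 1.47-fold, or 0.55 log2 units with a 95% interval of -0.19 to 1.29 (limma, Benjamini-Hochberg adjusted p = 0.747). Des averaged 1037.5 ± 155 in NGN-cre knockouts (SD, n = 3) and 850.2 in the control, 1.21-fold (log2 0.28, interval -0.32 to 0.87; limma, adjusted p = 0.847). Acta2 differed by 0.22, with an interval of -0.53 to 0.97 that spans falls and rises of moderate size. For Cnn1 the difference was 0.14 (interval -0.55 to 0.82). Myh11 differed by 0.06 (interval -0.45 to 0.57) and Actg2 by 0.05 (interval -0.49 to 0.59), so for these bright transcripts a change of 2-fold in either direction lay outside the interval. These intervals rest on 2 residual degrees of freedom from the NGN-cre arrays and assume that the lone control array varies like them. The smallest p that permuting 3 and 1 arrays allows is 0.25.

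The next comparison set the DHH-cre knockout against the NGN-cre knockouts. Here Acta2 and Cnn1 parted. Acta2 was 1.70-fold lower in the DHH-cre knockout, at 1878 against 3272 ± 836 in NGN-cre knockouts (SD, n = 3), a log2 difference of -0.77 with an interval of -1.52 to -0.02. Cnn1 was 1.69-fold higher, at 346 against 208 ± 45.5 in NGN-cre knockouts (SD, n = 3), a log2 difference of 0.76 with an interval of 0.07 to 1.44. Both intervals excluded 0, but neither gene passed the test across the whole table (limma with Benjamini-Hochberg adjustment, adjusted p = 0.264 for Acta2 and adjusted p = 0.229 for Cnn1).

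Of the 6 genes 0 passed, against 1.00% of all transcripts, while 2 of 6 were under an unadjusted p of 0.05, against 18.3% of all. Myh11 differed by -0.28 (interval -0.79 to 0.23), Actg2 by -0.15 (interval -0.69 to 0.39), Des by -0.07 (interval -0.67 to 0.52) and Tagln by 0.19 (interval -0.56 to 0.93). The median of the 6 was -0.11, against 0.01 over all transcripts. The DHH-cre value lay below all 3 NGN-cre arrays for Acta2, Actg2 and Myh11 and above all 3 for Cnn1. Those 4 of 6 genes compare with 65.6% of all transcripts whose DHH-cre value lay outside the NGN-cre range.

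**Figure D2:**
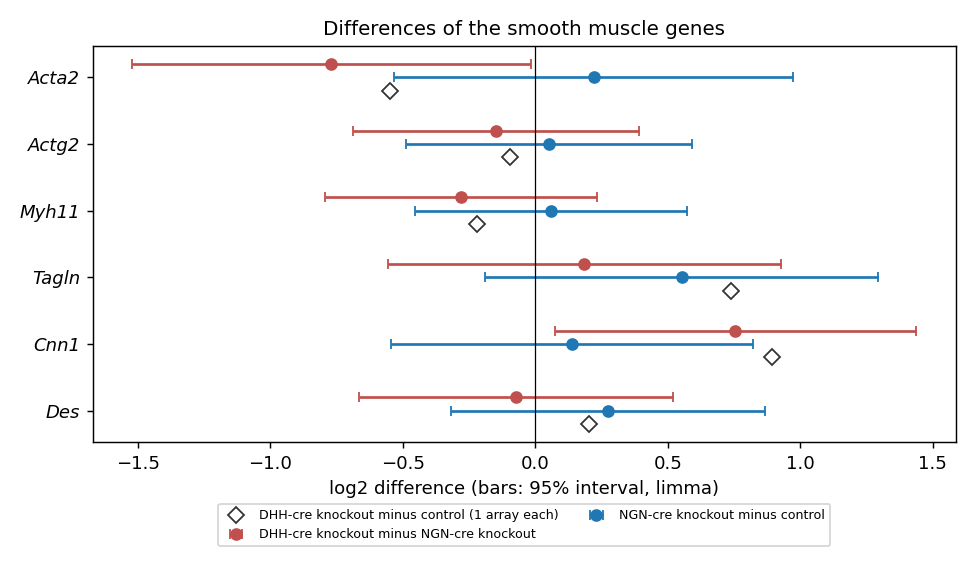
Log2 differences (x axis) of the 6 measured genes (y axis). Filled points carry 95% intervals from limma for DHH-cre minus NGN-cre knockout and for NGN-cre knockout minus control, and open diamonds are the DHH-cre minus control difference of 1 array each. Only the DHH-cre minus NGN-cre intervals of Acta2 (-1.52 to -0.02) and Cnn1 (0.07 to 1.44) exclude 0, before adjustment.

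No test set the DHH-cre array against the control, since neither had a replicate. Transcripts were counted here by size, where they differed at least 2-fold and by more than the NGN-cre arrays spanned. None of the 6 genes was counted, against 10.4% of all transcripts. Acta2 stood at -0.55, Myh11 at -0.22 and Actg2 at -0.10, while Cnn1 stood at 0.89, Tagln at 0.74 and Des at 0.20. These values share the control array with the NGN-cre comparison and the DHH-cre array with the comparison of knockouts.

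Other genes of the smooth muscle apparatus came from lists written with earlier results of these data known. Of 23 further contractile and cytoskeletal genes 20 were measured. In the DHH-cre knockout 17 of the 20 were lower than the NGN-cre mean, as were 49.4% of all transcripts. Their median was -0.37, and 14 lay below all 3 NGN-cre arrays, as did 32.5% of all transcripts. Of the 20, 0 passed the threshold, against 1.00% of all transcripts. The 3 largest differences were those of Itga8 at -1.10, Itga7 at -1.03 and Kcnmb1 at -0.95 (limma, Benjamini-Hochberg adjusted p = 0.104, 0.112 and 0.104). Itga7 and Itga8 encode integrin alpha chains that tie muscle cells to matrix, and Kcnmb1 the beta subunit of the calcium-activated potassium channel of smooth muscle. Kcnmb1 was dim, at a log2 of 7.175 on the DHH-cre array. Itga7 had 800.0 on the DHH-cre array, 1468, 1971 and 1498 on the NGN-cre arrays, and 1719.7 on the control array, so the DHH-cre value stood alone. It was the only 1 of the 20 genes counted against the control, at -1.10, while the size rule counted 10.4% of all transcripts.

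In the NGN-cre knockout against the control the same list had a median of -0.02, with 8 of 20 higher and 12 lower. The largest differences were -0.55 for Ldb3, a Z-disc protein, -0.43 for Pln, the calcium pump inhibitor phospholamban, and -0.40 for the filament protein gene Synm, and 0 of 20 passed. The other, dimmer rows of Ldb3 stood at -0.12 and -0.35.

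Regulators of the contractile programme were split in direction. Of 18 measured, 9 were lower and 9 higher in the DHH-cre than in the NGN-cre knockouts, with a median of 0.00 and 0 past the threshold. Of all transcripts, 49.4% were lower and 1.00% passed. Myocd encodes myocardin, the coactivator of serum response factor. It had 634 on the DHH-cre array, 1590.0, 2108.5 and 1414 on the NGN-cre arrays, and 2057.5 on the control array. The DHH-cre value was well below the other 4, a log2 difference of -1.41 (SE 0.28) from the NGN-cre knockouts that missed the threshold (limma, Benjamini-Hochberg adjusted p = 0.0731). It passed when the variance was fitted with an intensity trend (limma, adjusted p = 0.0309) and without NGN-cre replicate 3 (limma, adjusted p = 0.0218), over a range of 0.0218 to 0.171 in all alternatives. The trend and the fit without replicate 3 also raised the count of all transcripts that passed between the knockouts, as given in the last section. Srf itself, which encodes serum response factor, stood at -0.20.

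Mrtfb, a relative of myocardin, stood at 0.79 in the same comparison, with a wide interval of -0.36 to 1.94. Its value on NGN-cre replicate 3, 3089.8, was near that on the DHH-cre array, 3222.0. The transforming growth factor beta receptor gene Tgfbr1 stood at 0.73 (interval 0.19 to 1.27). The other, dimmer row of Mrtfb stood at 1.15. Against the control 2 of 18 regulators were counted by the size rule, near the background of 10.4%. Myocd was counted at -1.70 and Rock1, a kinase that keeps myosin phosphorylated, at 1.03. In the NGN-cre knockout against the control, Tgfb2, a growth factor gene, differed by 0.89, Rock1 by 0.82 and the serum response factor partner gene Elk1 by -0.47, and 0 of 18 passed. Rock1 was thus above the control on every knockout array, with 6295 on the DHH-cre array, 5705, 5185.5 and 5400.0 on the NGN-cre arrays, and 3073.5 on the control array.

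Among receptors and signals that act on peritubular cells, the endothelin genes had the largest differences between the knockouts. Endothelin is a peptide that makes smooth muscle contract. Its gene Edn1 had 3923 on the DHH-cre array, 7962, 10559.6 and 9815 on the NGN-cre arrays, and 8594 on the control array. The receptor gene Ednra had 4301 on the DHH-cre array, 7121, 8915 and 8808 on the NGN-cre arrays, and 7529 on the control array. Ednrb, the other receptor gene, had 980.2 on the DHH-cre array, 1743, 2937 and 3305 on the NGN-cre arrays, and 2701 on the control array. For all 3 genes the DHH-cre value was below the other 4 arrays. They were named for their large differences, which favours this order, and 32.5% of all transcripts had a DHH-cre value below all 3 NGN-cre arrays.

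The differences from the NGN-cre knockouts were -1.26 (SE 0.25) for Edn1, -0.94 (SE 0.24) for Ednra and -1.39 (SE 0.37) for Ednrb. By limma with Benjamini-Hochberg adjustment none passed, at adjusted p = 0.0720, 0.113 and 0.124. Edn1 passed with the intensity trend (limma, adjusted p = 0.0108) and without NGN-cre replicate 3 (limma, adjusted p = 0.0421), over a range of 0.0108 to 0.141. Ednra passed with the trend alone (limma, adjusted p = 0.0343, range 0.0343 to 0.189). As above, the trend and the fit without replicate 3 raised the count of all transcripts that passed. Over the 15 measured genes of this list 11 were lower, the median was -0.24 and 0 passed in the main fit. Of all transcripts, 49.4% were lower and 1.00% passed. Against the control 2 of 15 were counted by the size rule, also near the background of 10.4%, and these were Edn1 at -1.13 and Ednrb at -1.46. In the NGN-cre knockout against the control the growth factor genes Bmp4 and Pdgfa differed by 0.46 and 0.34, and 0 of 15 passed.

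**Figure D3:**
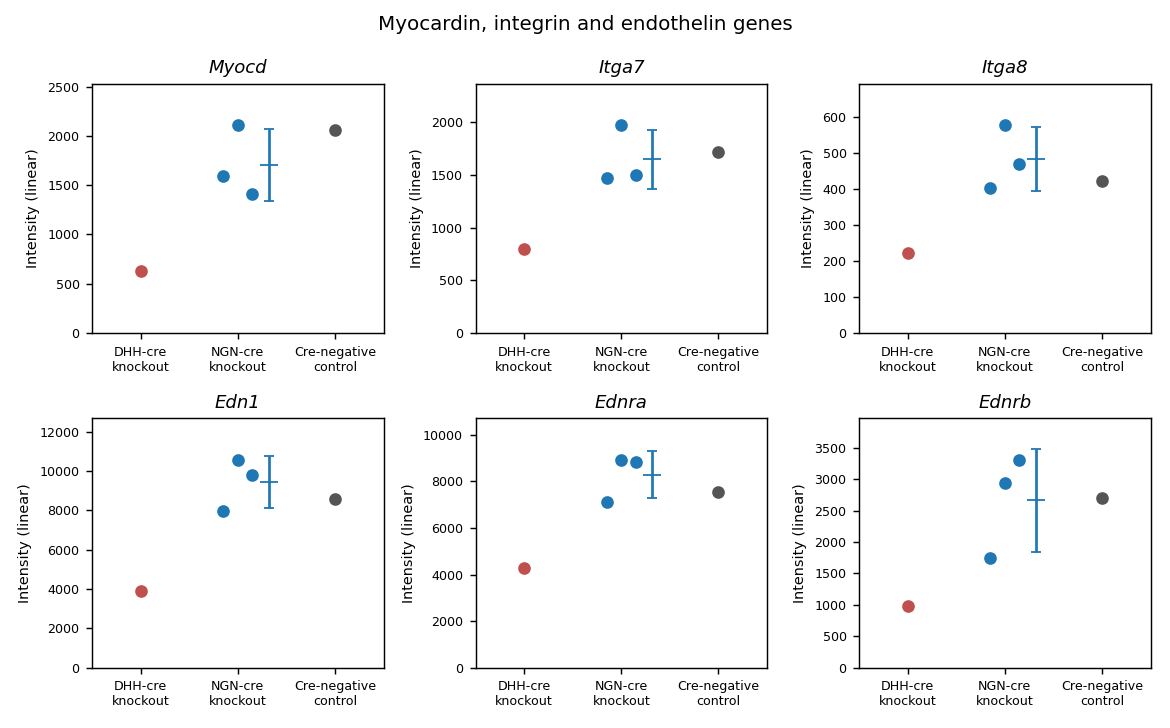
Linear intensity (y axis, from 0) of Myocd, Itga7, Itga8, Edn1, Ednra and Ednrb by group (x axis). Points are arrays and the bar is the mean ± SD of the 3 NGN-cre knockout arrays. In each panel the DHH-cre knockout point lies below the other 4 arrays, for example 634 for Myocd against 1414 to 2108.5 in the NGN-cre knockouts. The genes shown are among those with the largest differences in their lists. Of all transcripts, 32.5% had a DHH-cre value below all 3 NGN-cre arrays.

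No relative of the members outside smooth muscle passed between the knockouts, against 1.00% of all transcripts. Of 18 non-muscle and striated actins, myosins, transgelins, calponins and vimentin, 15 were below the NGN-cre mean and 3 above it, with a median of -0.32, while 49.4% of all transcripts were below. The largest differences were -1.11 for the skeletal actin gene Acta1, -1.01 for the cardiac light chain gene Myl2 and -0.80 for the non-muscle myosin gene Myh14. Acta1 and Myl2 were dim, with DHH-cre log2 values of 7.14 and 6.10 below the olfactory receptor 95th percentile of 8.26, so their sizes are uncertain. In the NGN-cre knockout against the control, Myl7, a light chain gene of the heart atrium, differed by 1.17, Acta1 by 1.02 and Myh14 by 0.36. Myl7 and Acta1 were dim on the control array, with log2 values of 7.12 and 7.23 below that percentile, so these sizes are uncertain too. The calponin genes Cnn2 and Cnn3 stood at -0.32 and -0.22 in the DHH-cre against the NGN-cre knockouts, opposite to Cnn1 at 0.76. Among the actins, Actb stood at -0.24 and Actg1 at 0.04, against -0.77 for Acta2.

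**Figure D4:**
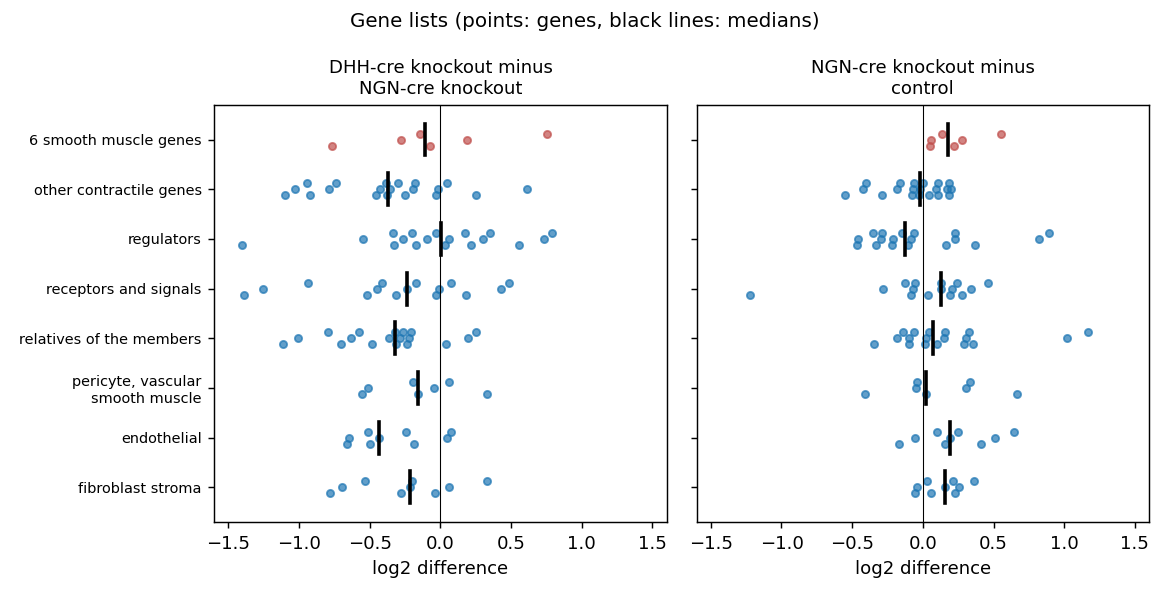
Log2 differences (x axis) of single genes in 8 gene lists (y axis), for DHH-cre minus NGN-cre knockout on the left and NGN-cre knockout minus control on the right. Points are genes and black lines are medians. On the left the medians of the other contractile genes (-0.37), the relatives (-0.32) and the endothelial genes (-0.44) lie below 0, and that of the 6 smooth muscle genes is -0.11.

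Markers of the other cell types that carry or surround smooth muscle were set beside these values. Over all transcripts 49.4% were lower in the DHH-cre than in the NGN-cre knockouts. Of 7 measured genes of pericytes and vascular smooth muscle, 5 were lower, with a median of -0.16. Their summed intensity was 31049 on the DHH-cre array, 28149 to 34047 on the NGN-cre arrays and 30845 on the control array, so the groups overlapped. Of 9 endothelial genes 7 were lower, with a median of -0.44 and sums of 27060 on the DHH-cre array, 34002 to 37803 on the NGN-cre arrays and 31358 on the control array. Of 9 stromal fibroblast genes 7 were lower, with a median of -0.22 and sums of 243029 on the DHH-cre array, 268195 to 278135 on the NGN-cre arrays and 259437 on the control array. The 20 other contractile genes summed to 146742 on the DHH-cre array, 179126 to 196818 on the NGN-cre arrays and 181815 on the control array. The 6 smooth muscle genes summed to 40663 on the DHH-cre array, 46185 to 49431 on the NGN-cre arrays and 45488 on the control array. No marker was at 0, the dimmest in these lists being Kcnj8 at a mean log2 of 8.27. The endothelial and fibroblast sums were thus lowest on the DHH-cre array, as were the sums of the 20 and of the 6 contractile genes. Sums follow the brightest rows, which among the 6 were Myh11 and Actg2, while Tagln and Cnn1 were above the NGN-cre mean. The part of endothelial and fibroblast cells in the result was not tested.

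Of 12 measured genes of striated muscle, 6 were lower and 6 higher in the DHH-cre than in the NGN-cre knockouts. Over all transcripts 49.4% were lower and 1.00% passed, and of the 12 genes 1 passed. This was Tnnt2, which encodes cardiac troponin T, the tropomyosin-binding subunit of the striated thin filament. It had 2347 on the DHH-cre array, 19816, 27676 and 24549 on the NGN-cre arrays, and 27182 on the control array. The DHH-cre value was 10.1-fold lower than in the NGN-cre knockouts (log2 -3.34, SE 0.26; limma, Benjamini-Hochberg adjusted p = 0.0153). Ckm, the muscle creatine kinase gene, was the dimmest of that list at a mean log2 of 6.66. In the DHH-cre knockout 10 of 11 genes of the epididymis and duct list were lower, against 49.4% of all transcripts. The list had a median of -0.80 and Crisp1 past the threshold. The list summed to 24595 on the DHH-cre array, 30900.0 to 33301 on the NGN-cre arrays and 27178 on the control array. Epcam alone had 20374 on the DHH-cre array, 21373 to 25629 on the NGN-cre arrays and 20574 on the control array. The sum was thus largely that of 1 gene and is not a measure of duct content. The dimmest gene of the list was Lcn9, at a mean log2 of 5.64. That list also had a median of 0.43 in the NGN-cre knockout against the control. There 8 of 11 genes were higher, against 47.4% of all transcripts. The ducts are sheathed in smooth muscle, and the part of carried-over duct in the values of the contractile genes was not tested.

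Genes of like pattern were sought by the root mean square difference of log2 values centred on each gene's own mean, over the 5 arrays. The centred mean of the 6 genes was nearly flat, at 0.00 on the DHH-cre array, -0.13, 0.10 and 0.19 on the NGN-cre arrays and -0.16 on the control array. Closest to it among named genes were Lrrcc1, Armcx1, Cmah, Grtp1 and Ccdc65, at distances of 0.025 to 0.031, against a median of 0.26 over all named genes. Of the members themselves Actg2 lay nearest to that mean, at 0.094, and Cnn1 farthest, at 0.37. Closest to Acta2, the member with the widest range, were Olfr1240 at 0.056, Bcl6b at 0.068, Cxcl9 at 0.078, Olfr832 at 0.080 and S100a16 at 0.083, against a median of 0.43. Olfr1240 and Cxcl9 had log2 values of 4.02 to 5.05 and 4.62 to 5.57, around the olfactory receptor median of 5.23, and Olfr832 had 5.52 to 6.56, so these are dim rows whose pattern may not be that of a transcript. Of the brighter rows, Bcl6b had log2 values of 10.78 on the DHH-cre array, 11.32 to 11.92 on the NGN-cre arrays and 11.47 on the control array. No other member was as close to Acta2, the nearest being Actg2 at 0.29 and the farthest Cnn1 at 0.64.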

How the data were processed

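The authors deposited a linear intensity for each transcript identifier on each array, made with RMA (version not stated) according to the submitters' processing notes. The arrays were of the MM8 60mer NimbleGen design, per the labels' protocols. RMA equalises the arrays, which hides a shift of total RNA, and it compresses differences between dim signals. Log2 of the deposited intensities was taken with no further normalization, pseudocount or filter. Identifiers were matched without versions to RefSeq (GRCm38.p6, names only for the arrays): 17780 of 25631 rows had 1 symbol. Where a gene had several rows, the brightest stood for it.

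Tests used limma 3.58.1 (R 4.3.3; lmFit, then eBayes, 1 mean per group over 5 arrays, two-sided, Benjamini-Hochberg over all rows), and checked on simulated data. The 95% intervals are not adjusted. The number of arrays limits the precision. The members and lists were chosen with earlier results of these data known. All members were named, and of the other contractile, regulator, receptor and relative lists the genes called or the 3 with the largest difference. The pericyte list, where no gene was called, was mostly given as a whole, and so were the relatives against the control. Of the remaining lists only called genes were named, and a few values outside this rule (Srf, Actb, Actg1, Cnn2, Cnn3, and the dimmest genes of lists) were chosen after they were seen. A gene that the rule would name is not reported here. Alternatives covered normalization, dim rows, pseudocount, variance model, arrays fitted, row choice and each NGN-cre replicate left out.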

Additional observations from a re-analysis of the deposited data

Results flagged for a closer look

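No smooth muscle gene of the set met a criterion for a closer look. Among the other genes named, the 2 knockouts differed from each other past the threshold (limma, Benjamini-Hochberg) for Tnnt2, at -3.34 in the DHH-cre minus the NGN-cre knockout, the only muscle gene among them. The same held for the duct gene Crisp1 at -5.98. Its DHH-cre value, at a log2 of 4.25, lay below the olfactory receptor median of 5.23, so the size of any Crisp1 difference is uncertain, and this one ran from -6.05 to -4.18 over the alternatives. The Sertoli cell genes Fshr at -1.55 and Cst9 at -3.06 passed too, in a list with 6 of 9 members lower and a median of -0.13. Over all transcripts 1.00% passed and 49.4% were lower. Hsd17b3, placed here in the Leydig cell list, passed at -3.27, while the other 6 members were higher and the list median was 0.37. Which cells gave the Hsd17b3 signal at this age was not tested. Fshr no longer passed without NGN-cre replicate 1 (limma, adjusted p = 0.115) or replicate 2 (limma, adjusted p = 0.0539), over a range of 0.00787 to 0.115.

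For some named genes every NGN-cre array lay on the opposite side of the control from the DHH-cre array. For all of these except Crisp1 the difference between knockouts did not pass. The share of all transcripts with this order was not counted, so it may be common. All 3 NGN-cre arrays were above the control for 25.7% of all transcripts. Pln was below the control on all 3 NGN-cre arrays and stood at 0.19 on the DHH-cre array. Above the control on all 3 NGN-cre arrays and below it on the DHH-cre array were Kcnmb1 at -0.76, Myl2 at -0.86 and Notch3 at -0.21. So were Acta1 at -0.093 and Pdgfa at -0.075, both close to the control, and, with its size uncertain as above, Crisp1 at -4.04.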

How the results depend on the processing

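In all alternatives run, 0 of the 6 smooth muscle genes passed in either tested comparison, and 0 were counted by the size rule against the control. Of 168 values of single members under alternatives, 164 were unchanged by the rule used. In the tested comparisons this meant the same direction and side of the threshold. For DHH-cre knockout minus control it meant a shift below the SD of the NGN-cre arrays. Several alternatives, such as the variance model and row choice, could not move a member's difference. Leaving out an NGN-cre replicate could not move DHH-cre knockout minus control. The count is therefore not a measure of robustness. The 4 others changed sign when 1 array was left out: Actg2 at -0.024 and Cnn1 at -0.025 in NGN-cre knockout minus control without NGN-cre replicate 3, Tagln at -0.019 in DHH-cre minus NGN-cre knockout without replicate 1, and Des at 0.036 there without replicate 2. With any replicate left out these differences ran from -0.024 to 0.113 for Actg2, -0.025 to 0.286 for Cnn1, -0.019 to 0.336 for Tagln and -0.179 to 0.036 for Des. The adjusted p of Cnn1 in DHH-cre minus NGN-cre knockout (limma, Benjamini-Hochberg) ran from 0.0761 to 0.413 and that of Acta2 from 0.173 to 0.336. Counts over all transcripts moved more, and the cause was not tested. Against the control the NGN-cre count of 0 became 66 with an intensity trend and ran from 0 to 238 with a replicate left out, the highest without replicate 3. Between the knockouts the count of 257 became 97 with log2(intensity + 50), 729 with the trend, and 38 to 1321 with a replicate left out, the lowest without replicate 1 and the highest without replicate 3. The variance model and the choice of arrays fitted do not enter the size rule, so they gave no value for it. No paired analysis was possible because the control and the DHH-cre knockout had 1 array each. Background correction could not be redone from summarised values, and the array numbers in the titles could not be fitted as a block.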
